A study of Mus musculus with 6 samples.

Results

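The genes described here encode the enzymes that place double bonds in fatty acids and lengthen their chains: the desaturases of the Scd and Fads families and the fatty acid elongases of the Elovl family. They were chosen by symbol, as the 10 rows Scd1, Scd2, Fads1, Fads2, Fads3, Elovl1, Elovl2, Elovl4, Elovl5 and Elovl6 of the 35857 gene rows, and all 10 were among the 14994 genes abundant enough to be tested. Expression was measured by sequencing polyadenylated RNA from the cerebral cortex of 7-day-old C57BL/6 mice. The groups were 3 control brains, labelled wild type, and 3 Qk-/- brains, 1 library each, called controls 1 to 3 and knockouts 1 to 3 here by their replicate numbers. The Qk gene encodes quaking, which binds RNA and is a protein of glia and neural progenitors that acts on splicing, stability and translation of its target transcripts. Which allele was used, and in which cells Qk was deleted, is not given in the sources used here. Levels are in TPM (transcripts per 1000000), an abundance scaled by transcript length, so that levels of different genes can be set side by side. The number of reads behind a TPM is unknown.

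Fatty acid synthase makes palmitate, part of which is lengthened to stearate, and the stearoyl-CoA desaturases (Scd) turn these saturated chains into oleate and palmitoleate. The Fads desaturases and several elongases convert the essential fatty acids of the diet into arachidonic and docosahexaenoic acid, which brain membranes hold in large amounts, and astrocytes are known to carry out much of this conversion for neurons. Other elongases make the very long chains found in the sphingolipids of myelin. In the first postnatal weeks of the mouse the cortex forms synapses, astrocytes mature and myelination begins, and all of these build membrane lipid.

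Scd1 was the single member that passed the test, and it fell to 0.398 times its control level. Of the other 9 members, 5 (Scd2, Fads1, Fads2, Elovl2 and Elovl5) were at 0.742 to 0.846 times control with no overlap between the groups, and did not pass the test, limma's moderated test on log2(TPM + 1) with p-values adjusted over all genes. Fads3, Elovl1, Elovl4 and Elovl6 lay at 1.01 to 1.09 times control, with overlapping groups. The share of all tested genes that passed, at an adjusted p of 0.05, was 0.387% (58 genes), with 0.287% lower and 0.1% higher in the knockout. Groups that did not overlap, with the knockout below, were seen in 6 of 10 members and in 8.98% of all tested genes; with the knockout above, in 0 members and 5.2% of genes. The same 6 members had an unadjusted p under 0.05, as did 8.72% of all tested genes, 5.3% with a lower and 3.42% with a higher level. The members' median log2 change was −0.26, against −0.03 for all tested genes. Instead of 58 genes, 20 and 28 passed without controls 2 and 3, and 31, 28 and 33 without knockouts 1, 2 and 3. Scd1 passed whichever library was left out.

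**Figure D1:**
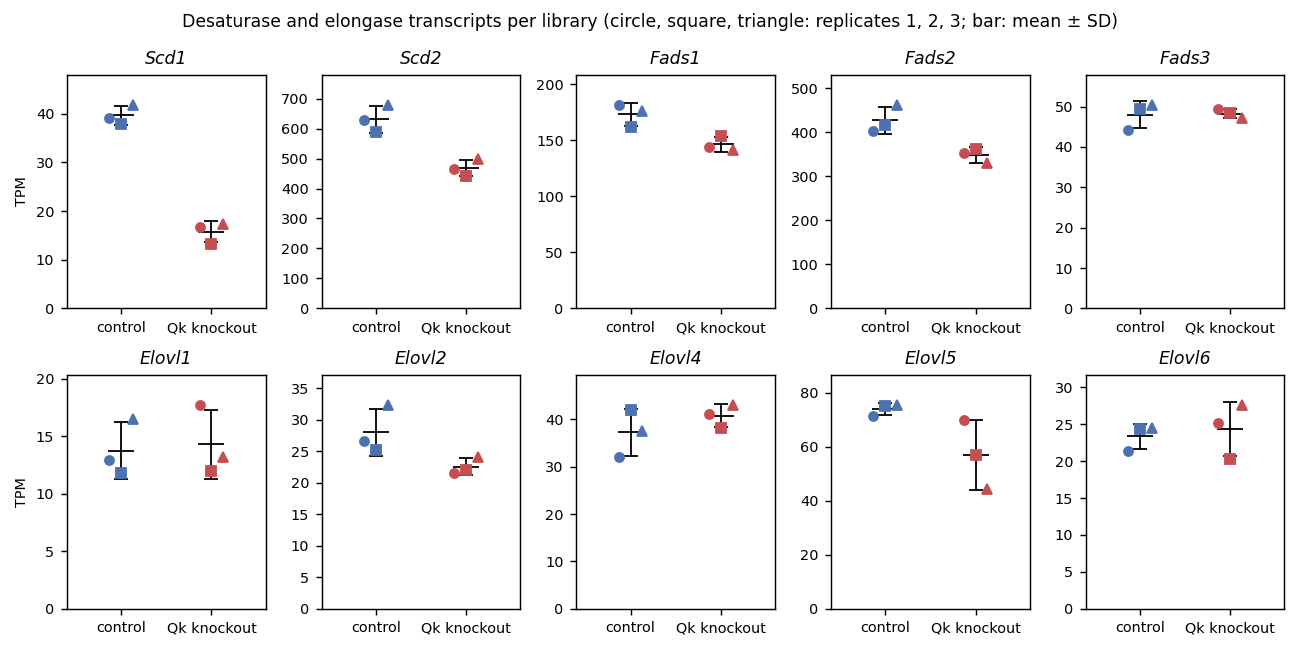
TPM of the 10 desaturase and elongase genes in each library, with control in blue and Qk knockout in red, symbols for replicates 1 to 3, and bars for mean ± SD (n = 3); every axis starts at 0. Scd1 lies at 13.3 to 17.3 TPM in the knockout and 38.0 to 41.8 TPM in control cortex, while Fads3 is at 44.1 to 50.4 TPM in all 6 libraries.

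The targeted gene was lower in all 3 libraries labelled as knockouts. Qk was at 36.5, 43.2 and 41.3 TPM in controls 1 to 3 and at 14.6, 15.2 and 15.4 TPM in knockouts 1 to 3 (limma, adjusted p = 0.000855). All 14 listed markers of excitatory cortical neurons were above the expression limit, and their summed level was 2842 to 3108 TPM in control and 2833 to 2889 TPM in knockout libraries. Pairs of libraries correlated across genes, on log2(TPM + 1), at 0.978 to 0.982 in the same group and at 0.977 to 0.980 in different groups, and no pair of libraries was a duplicate (15 to 38 identical values above 0 in any pair).

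Because quaking binds RNA at the core sequence ACUAAC or ACUAAU, the 3' UTR of each member was searched for ACTAAC and ACTAAT on the transcript strand, in the GENCODE protein-coding transcript with the longest 3' UTR. These 2 motifs can overlap each other, but none of the matches printed below did. Of the 10 members 6 held at least 1 match, as did 34.6% of 13459 tested genes. The 3' UTRs of the members were longer, with a median of 2064.5 bases against 1199 bases, so these shares are not like for like. Among tested genes with 3' UTRs of 0.8 to 1.25 times a member's length, 22.6% (for Elovl1) to 76.5% (for Elovl6) held a match. The matches are printed with 12 bases on either side and the motif in capitals, since they are the places in these transcripts where the letters quaking is known to bind occur. Positions are in GRCm38.
Scd1 at chr19:44397837-44397866, minus strand: ttctgttgattaACTAACaactggatattg
Scd1 at chr19:44395411-44395440, minus strand: ccagatgaatgtACTAATagctttgggtgc
Fads2 at chr19:10062949-10062978, minus strand: aggtctaactggACTAACcaaccaatatgt
Fads3 at chr19:10058654-10058683, plus strand: tcttgagcaggaACTAACctctcacttggc
Elovl2 at chr13:41185163-41185192, minus strand: gttttagcataaACTAATtccttttgagtt
Elovl2 at chr13:41185091-41185120, minus strand: ttaggttactctACTAACtggagccatgcc
Elovl4 at chr9:83779217-83779246, minus strand: aaggtgttacttACTAATacaagatgagaa
Elovl5 at chr9:77984171-77984200, plus strand: gacaatgtataaACTAATtgtgggtttgat

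Scd1 and Elovl2 each held 2 matches. In Scd1 the ACTAAC began at position 65 of a 3' UTR of 3464 bases, and of 1631 tested genes with 3' UTRs of 0.8 to 1.25 times that length, 32.4% had at least as many matches. In Elovl2 both lay near the start of a 3' UTR of 2913 bases, at positions 114 and 186, and 26.7% of 1913 genes of like length had at least as many. Matches were found in genes with lower values in the knockout (Scd1, Fads2, Elovl2, Elovl5) and in genes whose groups overlapped (Fads3, Elovl4). Scd2, Fads1, Elovl1 and Elovl6 had no match in this window. A match is a description of the letters and not of binding.

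The desaturases of saturated chains, Scd1 and Scd2, were both at lower levels in the knockout libraries, by unlike amounts. Scd1 was at 39.1, 38.0 and 41.8 TPM in controls 1 to 3 and at 16.7, 13.3 and 17.3 TPM in knockouts 1 to 3. Every knockout value was below every control value. The mean went from 39.6 ± 1.94 to 15.8 ± 2.13 TPM (SD, n = 3), a log2 change of −1.29 (SE 0.112, 95% interval −1.54 to −1.03; limma, adjusted p = 0.00182). In 15 other settings of the analysis, the fits without a library among them, its adjusted p was between 0.000606 and 0.0258.

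Scd2, the stearoyl-CoA desaturase known as the main one of mouse brain, was the most abundant member. It was at 627, 588 and 678 TPM in controls 1 to 3 and at 465, 442 and 498 TPM in knockouts 1 to 3. The groups did not overlap, with means of 631 ± 45.4 and 469 ± 28.1 TPM (SD, n = 3). The log2 change of −0.43 (SE 0.0800, 95% interval −0.61 to −0.25) did not pass after adjustment over all genes (limma, adjusted p = 0.0817), and in no other setting did it pass (adjusted p = 0.0541 to 0.311). In TPM the difference in Scd2 was the larger: the summed level of both genes went from 671 ± 47.3 to 484 ± 30.0 TPM (SD, n = 3), and most of that sum was Scd2.

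The balance between the Scd genes differed between the groups. Scd2 was at 16.0, 15.5 and 16.2 times the level of Scd1 in controls 1 to 3 and at 27.9, 33.2 and 28.9 times in knockouts 1 to 3. Scd1 made up 5.92% ± 0.139 of their summed TPM in control and 3.25% ± 0.283 in knockout cortex (SD, n = 3). The log2 ratio of Scd1 to Scd2 was −3.99 ± 0.04 and −4.90 ± 0.13 (SD, n = 3), with no overlap, and was given no test, as the members were chosen with these results known.

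Scd1 and Scd2 lie in a cluster with Scd3 and Scd4 on chromosome 19. Scd1 is on the minus strand at 44394455 to 44407879 and Scd2 on the plus strand at 44293674 to 44306864, and the 4 genes span 204.6 kb. Their coding sequences are close: Scd1 and Scd2 share 90.4% of 1068 aligned coding bases. Of all 50-base windows of the Scd1 transcript 3.03% occur also in that of Scd2, 3.49% in Scd3 and 1.76% in Scd4. The stretches below, counted from the start codon, show the largest and the smallest difference in 60 bases, with differing bases in capitals; a read that lies within the second pair of stretches matches both genes.
Scd1, coding bases 79 to 138: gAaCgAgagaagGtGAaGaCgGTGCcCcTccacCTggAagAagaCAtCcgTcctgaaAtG
Scd2, coding bases 88 to 147: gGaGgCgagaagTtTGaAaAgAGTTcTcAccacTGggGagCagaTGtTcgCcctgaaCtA
Scd1, coding bases 442 to 501: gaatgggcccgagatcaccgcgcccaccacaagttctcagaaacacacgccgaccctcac
Scd2, coding bases 451 to 510: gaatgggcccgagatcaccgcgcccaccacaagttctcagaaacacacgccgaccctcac

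The other genes of the cluster were scarce. Scd3 was at 1.20 ± 0.365 and 0.863 ± 0.150 TPM and Scd4 at 0.210 ± 0.120 and 0.207 ± 0.194 TPM in control and knockout (SD, n = 3), and neither came near the level of Scd1. Within 200 kb of the cluster 6 further genes were tested, among them Ndufb8, Bloc1s2 and Hif1an, and 0 of them passed by limma, 0 had groups that did not overlap and 0 had an unadjusted p under 0.05. Their log2 changes ran from −0.19 to 0.16.

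**Figure D2:**
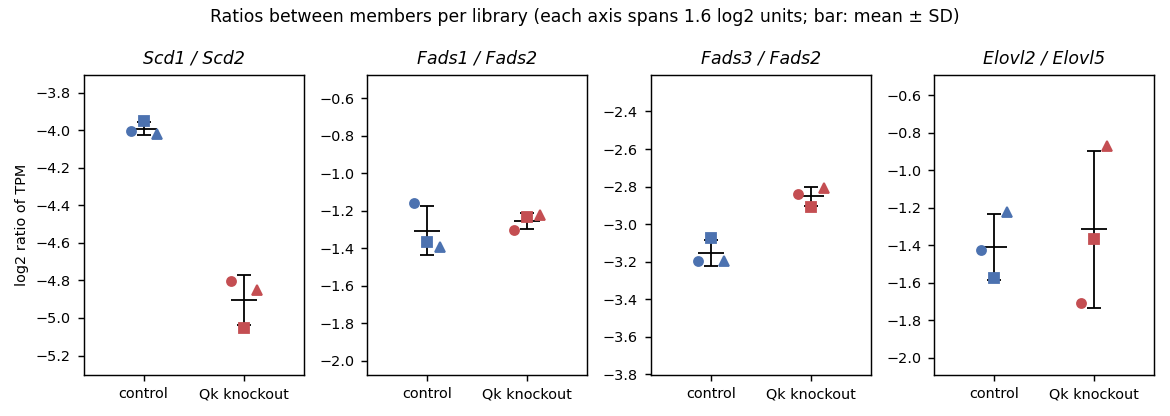
Log2 ratios of TPM between pairs of members in each library, control in blue and Qk knockout in red, with symbols for replicates and bars for mean ± SD (n = 3). Scd1 over Scd2 and Fads3 over Fads2 have groups that do not overlap, at −3.99 and −4.90 and at −3.16 and −2.85, while Fads1 over Fads2 and Elovl2 over Elovl5 overlap.

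Among the Fads genes, Fads2 and Fads1 were lower in all knockout libraries and Fads3 was not. The Fads2 product introduces the first double bond in the making of long polyunsaturated fatty acids, and the Fads1 product a later one. Fads2 was at 404, 416 and 462 TPM in controls 1 to 3 and at 354, 363 and 330 TPM in knockouts 1 to 3, without overlap. Its means were 428 ± 30.7 and 349 ± 17.3 TPM (SD, n = 3) and its log2 change −0.29 (95% interval −0.47 to −0.12; limma, adjusted p = 0.253).

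Fads1 was at 181, 161 and 176 TPM in controls 1 to 3 and at 144, 154 and 141 TPM in knockouts 1 to 3, again without overlap. The gap was narrow, between 161 and 154 TPM. The log2 change was −0.24 (95% interval −0.41 to −0.07; limma, adjusted p = 0.363).

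Fads3, whose product acts on sphingoid bases, was at 44.1, 49.4 and 50.4 TPM in controls 1 to 3 and at 49.5, 48.3 and 47.1 TPM in knockouts 1 to 3. The groups overlapped, and the 95% interval of its log2 change was −0.17 to 0.20. The ratio of Fads2 to Fads1 was 2.48 ± 0.215 and 2.38 ± 0.0685 (SD, n = 3), with overlapping groups. The ratio of Fads2 to Fads3 was 9.16, 8.43 and 9.18 in controls 1 to 3 and 7.16, 7.52 and 7.00 in knockouts 1 to 3, without overlap and with no test.

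The 3 Fads genes lie side by side on chromosome 19 over 155.3 kb, from 10041569 to 10196877. Fads3 and Fads1 are on the plus strand and Fads2, between them, on the minus strand. Within 200 kb of them 9 other genes were tested, among them Fth1, Tmem258, Fen1 and Dagla, with log2 changes of −0.13 to 0.25; 0 of them passed by limma, 0 had groups that did not overlap and 0 had an unadjusted p under 0.05. Unlike the Scd genes, the Fads transcripts share little sequence: Fads1 and Fads2 have 67.6% coding identity and no 50-base window in common.

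Of the elongases, Elovl5 and Elovl2, which lengthen polyunsaturated chains, were lower in all knockout libraries. Elovl5 was at 71.4, 74.9 and 75.3 TPM in controls 1 to 3 and at 70.0, 56.9 and 44.2 TPM in knockouts 1 to 3. Knockout 1 was just below the control values and knockout 3 far below, so that the SD was 2.14 TPM in control and 12.9 TPM in knockout. The log2 change was −0.39 (95% interval −0.72 to −0.06; limma, adjusted p = 0.473), and it was −0.55 without knockout 1 and −0.22 without knockout 3.

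Elovl2, which acts on the longer polyunsaturated chains on the way to docosahexaenoic acid, was at 26.6, 25.2 and 32.3 TPM in controls 1 to 3 and at 21.5, 22.04 and 24.1 TPM in knockouts 1 to 3. The groups lay close without overlap. The log2 change was −0.30 (95% interval −0.55 to −0.04; limma, adjusted p = 0.487), and −0.19 without control 3.

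Elovl5 lies on chromosome 9 at 77917364 to 77984519 (plus strand) and Elovl2 on chromosome 13 at 41182381 to 41220405 (minus strand).

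Elovl4, Elovl6 and Elovl1 had overlapping groups. They lie on chromosome 9 at 83778692 to 83806277 (minus strand), chromosome 3 at 129532355 to 129638495 (plus strand) and chromosome 4 at 118428093 to 118432953 (plus strand). Elovl4, which makes the longest chains and is known from retina and neurons, was at 32.1, 42.1 and 37.5 TPM in controls 1 to 3 and at 41.1, 38.1 and 43.0 TPM in knockouts 1 to 3, with a 95% interval of its log2 change from −0.11 to 0.38. Elovl6, which turns palmitate into stearate and so feeds the Scd enzymes, was at 21.4, 24.3 and 24.5 TPM and at 25.2, 20.3 and 27.6 TPM (interval −0.23 to 0.33). Elovl1, which makes saturated and monounsaturated very long chains for sphingolipids, was at 12.9, 11.8 and 16.5 TPM and at 17.7, 11.97 and 13.2 TPM (interval −0.34 to 0.43). The last bases of Elovl1 overlap those of Cdc20 on the opposite strand, the first of Elovl6 those of the antisense gene Gm35986, and whether counting used strand is not given in the sources used here. These intervals do not show that the genes were unchanged: that of Elovl1, the widest, reaches down to −0.34, past the changes of Fads1, Fads2 and Elovl2.

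**Figure D3:**
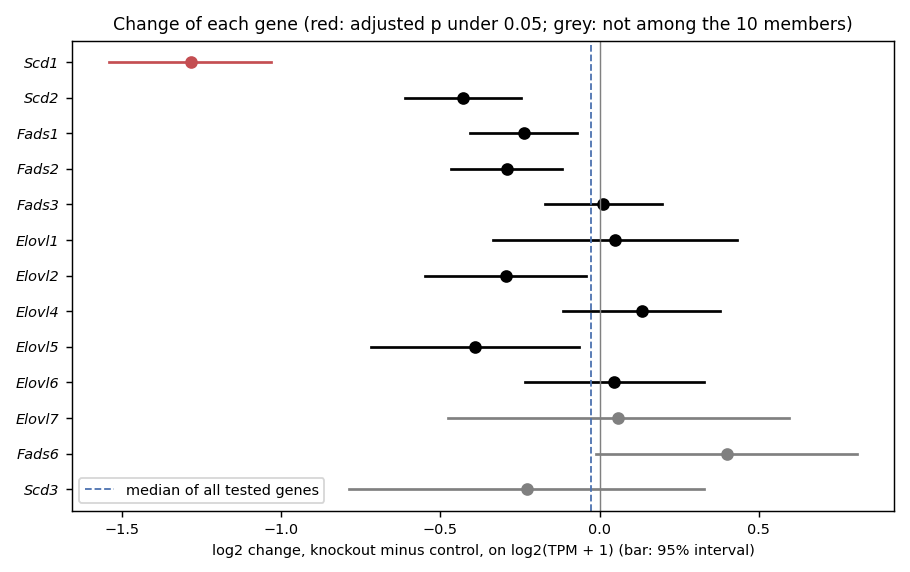
Log2 change of each gene, knockout minus control on log2(TPM + 1), with its 95% interval from limma; Scd1 in red passed an adjusted p of 0.05, the other members are black and the other tested Scd, Fads and Elovl genes grey. Scd1, at −1.29, lies apart from all others, and the intervals of Scd2, Fads1, Fads2, Elovl2 and Elovl5 lie below 0 without passing the adjusted threshold.

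The place of Scd1 in the order of levels differed between the groups. In control cortex the means ran from Scd2 through Fads2, Fads1, Elovl5, Fads3, Scd1, Elovl4, Elovl2 and Elovl6 to Elovl1. Neighbours in that order did not overlap except Scd1 with Elovl4 and Elovl4 with Elovl2. In knockout cortex Scd1 stood in place 9 instead of 6, between Elovl2 and Elovl1, and its values overlapped those of Elovl1. There Elovl5 overlapped Fads3 and Elovl6 overlapped Elovl2. Summed over the 10 genes the level was 1496 ± 87.5 TPM in the control and 1187 ± 17.6 TPM in the knockout libraries (SD, n = 3), and Scd2 and Fads2 together made up 70.8% and 68.9% of it. The summed Elovl members were at 164 to 186 TPM in control and 149 to 175 TPM in knockout libraries and overlapped.

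Of the remaining family genes, Fads6 was at 3.40, 3.46 and 4.30 TPM in controls 1 to 3 and at 6.56, 4.36 and 4.89 TPM in knockouts 1 to 3. The groups did not overlap, the nearest values being 4.30 and 4.36 TPM, and it did not pass (log2 change 0.40; limma, adjusted p = 0.587). Elovl7 was at 1.78 ± 0.272 and 1.94 ± 0.716 TPM (SD, n = 3), and Elovl3 was listed at 0 in all 6 libraries.

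RefSeq promoters (GRCm38.p6, 250 bases before to 50 bases after a start) were on hand for 7 of the 10 members; Scd1, Scd2 and Fads1 had no entry. They were searched on both strands for TCACNCCAC, a form of the sterol regulatory element bound by SREBP, for CCAAT, bound by NF-Y, and for GGGCGG, bound by Sp1. TCACNCCAC was in none of the members' promoters and in 1.24% of 32851 promoters. CCAAT was in 37.4% and GGGCGG in 35.7% of all promoters, and the CCAAT of Elovl1 overlapped a GGGCGG match. Elovl5, with lower values in the knockout, and Fads3, whose groups overlapped, are shown for the 120 bases before the start, because both hold 2 CCAAT matches (written ATTGG where on the other strand) there; matches are in capitals, and Fads3 has a GGGCGG as well.
Elovl5 at chr9:77917245-77917364, plus strand: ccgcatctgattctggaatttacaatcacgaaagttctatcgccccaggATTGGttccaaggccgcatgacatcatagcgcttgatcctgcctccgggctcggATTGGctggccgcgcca
Fads3 at chr19:10041428-10041547, plus strand: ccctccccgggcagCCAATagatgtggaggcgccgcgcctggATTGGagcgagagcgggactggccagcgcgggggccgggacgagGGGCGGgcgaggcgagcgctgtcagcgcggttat

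The enzymes that work beside the desaturases and elongases showed no call. Of 6 tested partners of the elongation cycle, which reduce and dehydrate the lengthened chain, 0 passed by limma and 0 had an unadjusted p under 0.05 (median log2 change −0.003). Tecr, the last reductase of the cycle, was at 1134 ± 117 and 1212 ± 150 TPM and Hacd3, a dehydratase, at 97.8 ± 1.02 and 94.1 ± 8.77 TPM in control and knockout (SD, n = 3). Of 5 genes that carry electrons to the desaturases 0 passed, with 1 at an unadjusted p under 0.05, Cyb5r1 (24.8 ± 2.65 and 20.7 ± 0.185 TPM). Cytochrome b5, Cyb5a, was at 255 ± 10.7 and 261 ± 14.1 TPM, and its reductase Cyb5r3 at 77.7 ± 4.25 and 74.8 ± 4.82 TPM.

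The supply of saturated chains gave values in both directions. None of 11 genes passed by limma, 3 had an unadjusted p under 0.05 and the median log2 change was −0.01. Fasn, the fatty acid synthase gene, was at 189 ± 11.7 and 187 ± 11.2 TPM, and Acly, which makes cytosolic acetyl-CoA, at 169 ± 4.42 and 182 ± 1.44 TPM in control and knockout (SD, n = 3). The 3 genes, named after their values were seen, were Mid1ip1 and Thrsp, which encode related regulators of acetyl-CoA carboxylase, and Acss2, which makes acetyl-CoA from acetate. Mid1ip1 was lower in the knockout, at 53.0 ± 2.07 and 41.4 ± 2.33 TPM (adjusted p = 0.167), and Thrsp higher, at 5.69 ± 1.51 and 9.80 ± 0.563 TPM (0.201), both without overlap. Acss2 was at 29.4 ± 4.25 and 21.6 ± 3.49 TPM with overlapping groups.

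The transcription factors that govern lipid synthesis, and their partners, gave no call. Of 14 tested genes 0 passed by limma, with 1 at an unadjusted p under 0.05, and the median log2 change was 0.03. Srebf2 was at 187 ± 6.01 and 194 ± 13.5 TPM, and Srebf1, the form known to drive Scd1 and fatty acid synthesis, at 30.5 ± 1.54 and 29.7 ± 2.001 TPM in control and knockout (SD, n = 3; interval of the log2 change −0.24 to 0.16). Insig1, which holds SREBP in the endoplasmic reticulum and is itself a known target of SREBP, was at 92.3, 96.0 and 94.1 TPM in controls 1 to 3 and at 115, 118 and 105.5 TPM in knockouts 1 to 3. The knockout values of Insig1 lay above all control values, and the gene did not pass (limma, adjusted p = 0.290). The part of SREBP in the level of Scd1 was not tested.

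The peroxisomal genes that shorten the last intermediate of docosahexaenoic acid synthesis had a log2 change below 0 in 10 of 10, as did 57% of all tested genes, with a median of −0.12; 0 passed by limma and 2 had an unadjusted p under 0.05. Acaa1a, a peroxisomal thiolase, was at 128 ± 10.7 and 107 ± 4.17 TPM in control and knockout (SD, n = 3), without overlap. The 8 genes of fatty acid uptake and carriage had log2 changes above 0 in 6 and below 0 in 2, with a median of 0.08. Their summed level was 2086 to 2291 TPM in control and 2307 to 2506 TPM in knockout libraries, without overlap. Of these 8 genes, 1 passed. Mfsd2a, the transporter that brings docosahexaenoic acid across the endothelium of brain vessels, fell to 21.1 ± 0.866 TPM from 32.9 ± 3.43 TPM in control (SD, n = 3; log2 change −0.61; limma, adjusted p = 0.0451). Leaving out any of the 6 libraries ended that call (adjusted p = 0.0804 to 0.195).

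**Figure D4:**
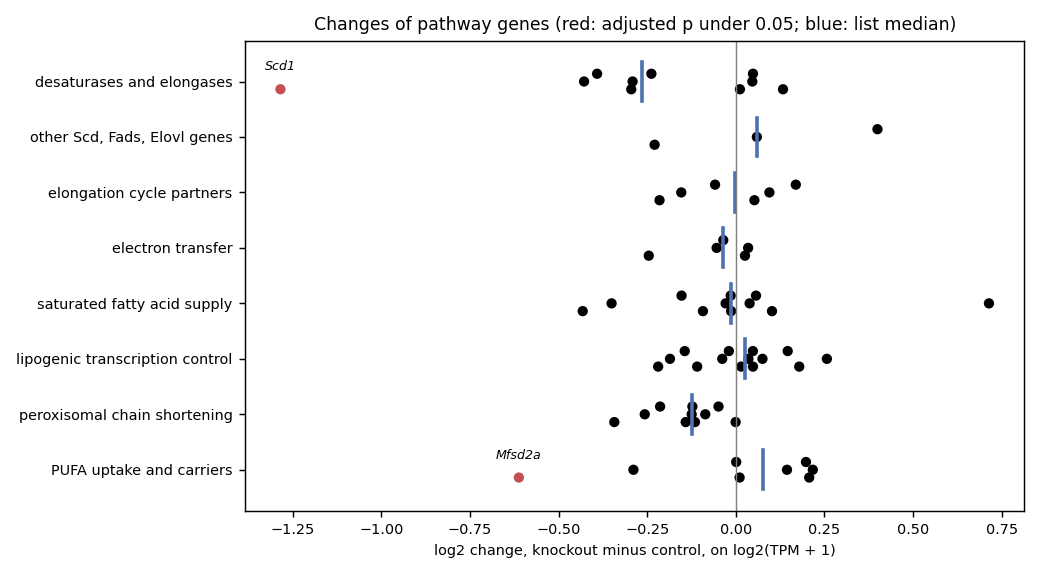
Log2 change, knockout minus control on log2(TPM + 1), of each tested gene of 8 lists around fatty acid desaturation and elongation; red points passed an adjusted p of 0.05 and blue lines are list medians. Scd1 and Mfsd2a are the calls, the desaturase and elongase list has its median at −0.26, and the other lists have medians between −0.12 and 0.08.

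The genes whose pattern over the 6 libraries was most like that of Scd1, by Pearson's r of log2(TPM + 1) among 10977 genes of at least 5 TPM, were Myef2 (0.9994), Hopx (0.9970), Hdhd2 (0.9967), Gja1 (0.9922) and Ttyh1 (0.9919). These are correlations over libraries of which 3 are control and 3 knockout, so they reflect the difference between the groups above all, and are given as a description. Hopx, a homeodomain gene of outer radial glia and astrocytes, was at 40.4 ± 2.17 and 23.0 ± 2.57 TPM, Gja1, the connexin 43 gene of astrocytes, at 71.9 ± 2.13 and 51.6 ± 2.44 TPM, and Ttyh1, a membrane protein of neural stem cells and astrocytes, at 350 ± 13.6 and 220 ± 12.6 TPM in control and knockout (SD, n = 3). Of the 5 genes 4 passed the test (limma, adjusted p = 0.00596 to 0.0451), as did 0.387% of all tested genes. Likeness to Scd1, which itself passed, selects for such genes, so that count is no separate result. Without 1 library Ttyh1 passed in 6 of 6 fits, Hopx in 2, and Gja1 and Hdhd2 in 0. Myef2, at 43.1 ± 0.336 and 37.2 ± 0.677 TPM, followed the rank and spacing of Scd1 at a much smaller log2 change of −0.21 and did not pass (adjusted p = 0.445).

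Some markers of astrocytes and of differentiating oligodendrocytes, cells known to express these enzymes, were lower beside Scd1. Fell and rose mean here that a gene passed the test. Of 26 astrocyte markers 7 fell, among them Slc1a3, Slc25a18, S100b and Mlc1, and 0 rose. Log2 changes were below 0 in 20 and above 0 in 6, with a median of −0.31 and a range from −1.65 to 0.59. Groups did not overlap in 17 with the knockout below, against 8.98% of all tested genes. With the knockout above they did not overlap in 2, against 5.2%. These were Aldh1l1, at 1.39 times control, and Aldh1a1, at 1.58 times, which did not pass (limma, adjusted p = 0.139 and 0.187). Their summed level was 4026 to 4423 TPM in control and 3207 to 3735 TPM in knockout libraries. Of the newly formed oligodendrocyte markers 3 of 13 fell (Bcas1, Gpr17 and Sirt2), with sums of 479 to 529 and 373 to 393 TPM, and of 17 myelin markers 3 fell (Mbp, Car2 and Cnp), with sums of 461 to 483 and 358 to 388 TPM. Log2 changes were above 0 in 2 of the 13 and in 6 of the 17. No astrocyte marker was under 1 TPM in all libraries, and of the myelin markers Ermn and Opalin were. In each fit without 1 library the calls of Slc1a3, Slc25a18, S100b, Mlc1 and Mbp held, while Gpr17 and Bcas1 were kept in 4 of 6, Acsbg1 and Cnp in 2, Car2 and Sirt2 in 1, and Fgfr3 and Gja1 in 0.

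Scd1, at 0.398 times control, was lower than these summed markers, at 0.817 times control for astrocytes, 0.753 for newly formed oligodendrocytes and 0.793 for myelin. A sum hides the spread of its genes. Log2 changes of single markers ran from −1.65 to 0.59 for astrocytes and from −1.49 to 0.70 for newly formed oligodendrocytes. For myelin they ran from −0.87 to 0.75. The −1.29 of Scd1 thus lay within the range of the first 2 lists. Scd2 was at 0.742 and Fads2 at 0.816 times control. Recounts of the marker sums were chosen after the values were seen. Without the markers that fell, the astrocyte sum was at 0.893 and the myelin sum at 1.06 times control, both with overlap. The newly formed oligodendrocyte sum was then at 0.904 without overlap. Leaving out genes that fell raises a ratio by choice, so this cannot show on how many genes the sums rest. Without the 2 most abundant genes of each list the ratios were 0.735, 0.711 and 0.776 for astrocytes, newly formed oligodendrocytes and myelin, without overlap. The summed precursor markers were at 1.06 times control with overlapping groups, those of excitatory neurons at 0.965 and of endothelium at 0.917, also overlapping. Those of microglia were at 1.23 without overlap (1.12 without Spp1). Without the 2 most abundant genes of each list, precursor markers were at 0.958 and excitatory neuron markers at 0.984 with overlap. Endothelial markers were then at 0.896 and microglia markers at 1.24, without overlap. Summed interneuron markers were at 1.18 times control, and without Sst and Npy, their 2 most abundant genes, at 1.0 times with overlap (median log2 change of the list 0.03). Summed pericyte markers were at 0.835 and meningeal markers at 0.825 times control, without overlap. Without the 2 most abundant genes of each list, pericyte markers were at 0.843 without overlap and meningeal markers at 0.823 with overlap. Choroid plexus markers were at 0.66 times control with overlap, and at 1.07 times without Ttr and Folr1, and red blood cell genes at 0.789 times with overlap. In these 9 lists 1 gene each fell among precursor markers (Gpr17) and endothelial markers (Mfsd2a), and 1 each rose among precursor (Olig2), microglia (Spp1) and choroid plexus and ependyma markers (Foxj1); without 1 library the call of Olig2 held in 1 of 6 fits and those of Spp1 and Foxj1 in 0. The part of the marker shifts in the levels of the desaturases and elongases was not tested, and in whole cortex fewer cells of a type and less RNA per cell cannot be told apart.

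**Figure D5:**
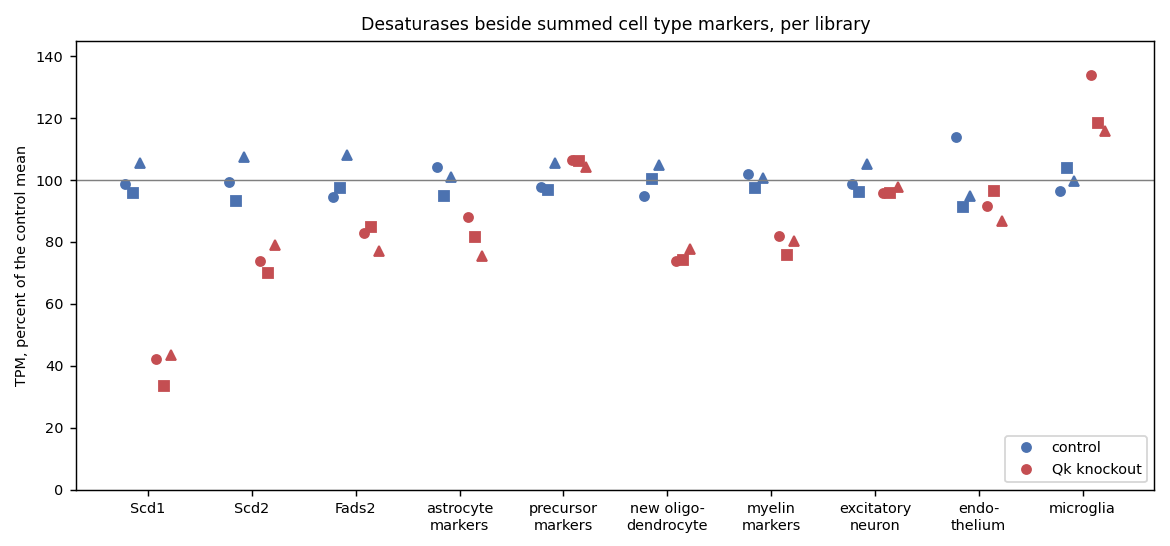
TPM of Scd1, Scd2 and Fads2 and summed TPM of cell type marker lists in each library, as percent of the control mean, with control in blue, Qk knockout in red and symbols for replicates 1 to 3. The summed astrocyte, newly formed oligodendrocyte and myelin markers are at 0.817, 0.753 and 0.793 times control in the knockout. Scd1 is lower than these sums, at 0.398 times control, but within the range of single astrocyte and newly formed oligodendrocyte markers. Without the markers that fell, the astrocyte and myelin sums overlap between groups. Without the 2 most abundant genes of each list, the astrocyte, newly formed oligodendrocyte and myelin sums do not overlap. The precursor and excitatory neuron sums then do.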

How the data were processed

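TPM were made and deposited by the authors, 1 file per library. The submitters' processing notes name STAR 2.4.1d, RSEM 1.3.0 and the builds mm10 and GRCm38.p4. The sources used here give neither the annotation nor the use of strand. Each library sums to 1000000 TPM, so depth and counting error are unknown. Groups and replicate numbers came from the sample titles. The 14994 genes averaging 1 TPM or more were fitted as log2(TPM + 1) with limma 3.58.1 in R 4.3.3 (group as the only term, eBayes with trend), with two-sided p-values adjusted by Benjamini-Hochberg over all of them and a threshold of 0.05. A log2(TPM + 1) change understates that of scarce genes. The fit was tested on simulated normal log2 values. Of 100 genes given a log2 change of 0.5 in size it recovered 30%, and of 100 given 1 it recovered 85%. Unchanged genes were 4.96% of its calls. A change of 0.5 or less can thus often fail to pass. P-values reflect the spread between the 3 brains of a group. The members, the pathway and marker lists and the comparisons were chosen with earlier results of these data known. Named genes were the members, Qk, list genes past the threshold or, failing these, the 2 most abundant of a pathway list, and the 5 genes most like Scd1; others are named by position or after their values were seen. Positions and transcripts are from GENCODE M21 (GRCm38) and promoters from RefSeq (GRCm38.p6), matched by symbol. The values of 1 gene that this rule names are not reported here.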

Additional observations from a re-analysis of the deposited data

How the results depend on the processing

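The analysis was repeated under 15 other settings: pseudocounts of 0.1 and 0.5, no filter or a mean of at least 5 TPM, median-of-ratios and upper-quartile scaling, eBayes without trend or robust, the replicate block, and each library left out. Scd1 alone among the members passed in all 15. Scd2, Fads1, Fads2, Elovl2 and Elovl5 were lower in the knockout in all 15, and Elovl4 higher. The number of genes past the threshold was 58. It was 37 with no expression filter, where more genes were tested, and 28 with eBayes without trend. Without 1 library, which leaves fewer samples, it was between 20 and 53. The causes of these differences were not tested. Values near 0 changed sign without a library: Fads3 (−0.046 without control replicate 1 and −0.0061 without knockout replicate 1, up to 0.047), Elovl6 (−0.013 without control replicate 1 and −0.045 without knockout replicate 3, up to 0.17) and Elovl1 (−0.048 without control replicate 2 and −0.11 without knockout replicate 1, up to 0.18). The labels do not say whether same-numbered libraries of the groups share more than a number. Their deviations from the group means correlated at 0.013 to 0.035. Every control library correlated best with the knockout library of its own number. Correlations this small, over so few libraries, cannot decide whether the libraries are paired. With the replicate block 38 genes passed. Since depth is unknown, the counting error of scarce genes such as Scd3 and Scd4 cannot be given.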
